A study of Homo sapiens with 31 samples.

Results

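The genes described here encode 8 proteins of the desmosome and 2 cadherins of intestinal epithelium, measured on arrays of Caco-2. This established line came from a colorectal adenocarcinoma and differentiates into an enterocyte-like monolayer. They were DSG2, DSC2, DSC3, DSP, JUP, PKP2, PKP3, PERP, CDH1 and CDH17, taken as the array rows annotated with exactly 1 gene, that gene being on the list. All 10 were found among 22395 genes with such a row, each with 1 row, and no member shared a row with another gene. Cells of passage 29 to 45 were kept for 21 days, either static on Transwell inserts or in a gut-on-chip device perfused at 100 µL/h. They then received TiO2 or ZnO nanomaterial, or the metal-free dispersion medium of either one, for 6 h. TiO2 was given at 50 µg/mL on Transwell and 100 µg/mL in the chip, and ZnO at 10 µg/mL and 80 µg/mL. These doses were modelled to deposit equally, and the chip's flow was stopped during exposure. The 8 groups of system and medium had 4 arrays each, except Transwell TiO2 with 3. The labels do not say that replicates were separate cultures, so p-values measure the spread between these arrays, which may be technical.

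Desmosomes are spot-like junctions that tie the intermediate filaments of neighbouring epithelial cells together. Their cadherins, the desmogleins and desmocollins, bind between cells, and the armadillo proteins plakoglobin and the plakophilins connect the cadherin tails to desmoplakin, which holds the keratin filaments. E-cadherin does the same for actin at adherens junctions, and the intestine also carries LI-cadherin, the product of CDH17. The comparison of systems asked how culture in the perfused chip differed from static culture on inserts, and that of media how cells responded to each nanomaterial. Device and flow changed together, so they cannot be told apart.

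Values are log2 expression after RMA, a method that corrects background, equalises the arrays' distributions and summarises probes. The medians of the 31 arrays lay between 3.243 and 3.333, and every member's mean exceeded them in all groups. A level is comparable between groups for the same gene, not between genes. Among markers of the cells themselves, EPCAM, an epithelial surface protein, had group means of 11.55 to 11.65, and 0 of the 9 enterocyte-like markers measured lay below the array medians throughout. Over both control media 3 of the 9 were higher in the chip (14.6% of all genes) and 4 lower (18.9%). The keratin genes KRT8 (0.91 ± 0.17), KRT18 (0.56 ± 0.08) and KRT20 (0.96 ± 0.22) were the higher ones. The brush border genes VIL1, villin (-0.75 ± 0.07), ANPEP (-0.99 ± 0.19) and ALPI (-0.51 ± 0.19) and the homeobox gene CDX2 (-0.74 ± 0.10) were the lower ones. Markers of other cell types were partly detected. Below the array medians in every group were 2 of 6 stromal, 2 of 5 immune, 1 of 3 endothelial and 3 of 5 squamous markers, with the leukocyte gene PTPRC (1.48 to 1.68), the collagen gene COL1A2 and the squamous keratin gene KRT5 among them. Some other markers of these lists had group means above the medians throughout. They included the immune markers CD68 (10.38 to 11.43) and LYZ (5.79 to 7.10) and the stromal markers LUM (6.06 to 7.69) and COL1A1 (5.39 to 6.13). The mean level of the stromal markers ranged over single arrays from 4.19 to 4.41 on Transwell and from 3.72 to 4.50 in the chip, and that of the immune markers from 5.06 to 5.61 and from 5.38 to 5.91. In control media 0 stromal markers were higher and 2 lower in the chip, and 2 immune markers were higher and 1 lower, and their part in the results was not tested. On the third principal component of the brighter genes (4.48% of the variance) chip TiO2 replicate 4 (-12.2) lay near the chip TiO2 controls 1 to 3 (-20.6 to -14.7). Chip TiO2-control replicate 4 (8.10) lay on the side of the chip TiO2 arrays 1 to 3 (11.7 to 17.4), so both stood apart from their labels' groups. Over those genes each of them correlated more with the other group of the pair than with its own (-0.15 against -0.49, and -0.21 against -0.41), while the other 6 arrays of these groups did the reverse. In the other pairs of exposed and control groups, chip ZnO replicate 1, Transwell ZnO replicate 1 and Transwell TiO2-control replicates 1, 2 and 4 also correlated more with the other group. Whether their labels were exchanged was not tested, and the labels were kept. Chip ZnO replicate 1 also stood apart on this component (-22.5 against 6.17 to 23.9 in the other 3) and had the lowest weight of all arrays (0.385). Calls that change without both arrays numbered 4 are given both ways, as are the exposure differences that moved most without these arrays.

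In control media, 6 of the 8 desmosomal members differed between the systems, and not all in 1 direction. As the mean over both control media, 7 of the 10 members passed an adjusted p of 0.05 (limma, Benjamini-Hochberg over all genes), against 33.5% of all genes. Of these, 5 were higher in the chip (14.6% of all genes) and 2 lower (18.9%). DSG2, DSC3, DSP, JUP and PERP were higher, DSC2 and CDH17 were lower, and PKP2, PKP3 and CDH1 did not pass. The median log2 difference was 0.23 over the members and -0.00 over all genes. Fewer cells carrying a transcript and less of it per cell cannot be told apart in these bulk samples.

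The 250 bases before the start of DSG2, DSP, JUP and PERP, which were higher in the chip, and of DSC2, which was lower, are shown to let their letters be compared. They come from RefSeq on GRCh38.p14, in which 6 of the 10 members were matched. Each is written 5′ to 3′ on the gene's strand, and capitals mark 3 motifs searched on both strands: CACCTG, the E-box that Snail proteins can bind, GGGCGG, the GC box of Sp1-like factors, and TGANTCA, the AP-1 motif.
DSG2, chr18:31497927-31498176, plus strand: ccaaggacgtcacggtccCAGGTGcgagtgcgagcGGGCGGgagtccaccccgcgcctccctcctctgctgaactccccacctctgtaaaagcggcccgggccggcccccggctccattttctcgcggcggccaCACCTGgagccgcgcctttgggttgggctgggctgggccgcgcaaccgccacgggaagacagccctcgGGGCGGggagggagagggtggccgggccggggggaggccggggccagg
DSP, chr6:7541421-7541670, plus strand: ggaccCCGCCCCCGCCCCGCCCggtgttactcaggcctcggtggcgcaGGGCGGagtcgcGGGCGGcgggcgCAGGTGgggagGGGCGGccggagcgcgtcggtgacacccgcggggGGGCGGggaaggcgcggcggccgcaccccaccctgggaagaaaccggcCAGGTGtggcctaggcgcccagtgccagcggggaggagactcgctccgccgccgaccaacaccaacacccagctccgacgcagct
JUP, chr17:41785977-41786226, minus strand: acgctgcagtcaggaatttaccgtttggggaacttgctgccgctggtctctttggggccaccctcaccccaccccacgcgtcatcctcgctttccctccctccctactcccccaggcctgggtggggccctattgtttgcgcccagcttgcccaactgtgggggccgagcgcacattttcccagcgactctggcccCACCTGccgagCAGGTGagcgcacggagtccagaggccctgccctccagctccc
PERP, chr6:138107420-138107669, minus strand: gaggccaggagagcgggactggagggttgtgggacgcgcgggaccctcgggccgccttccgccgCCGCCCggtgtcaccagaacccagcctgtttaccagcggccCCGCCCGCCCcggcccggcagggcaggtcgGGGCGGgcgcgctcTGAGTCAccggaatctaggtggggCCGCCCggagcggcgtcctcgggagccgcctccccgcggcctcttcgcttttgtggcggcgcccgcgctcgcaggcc
DSC2, chr18:31101261-31101510, minus strand: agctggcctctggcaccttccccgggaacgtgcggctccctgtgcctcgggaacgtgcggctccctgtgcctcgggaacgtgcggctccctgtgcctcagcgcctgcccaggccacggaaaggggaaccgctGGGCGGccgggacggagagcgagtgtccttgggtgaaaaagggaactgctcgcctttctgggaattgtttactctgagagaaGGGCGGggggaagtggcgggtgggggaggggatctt
CACCTG occurred 2 times each in the windows of DSG2, DSP and JUP and 0 times in those of PERP, DSC2 and DSC3, and 17.5% of 35116 promoter windows of the same length held it. GGGCGG occurred 2 times in DSG2, 7 in DSP, 5 in PERP, 2 in DSC2 and 0 in JUP and DSC3, against 42.6% of windows with at least 1 match. Adjacent GC boxes in the DSP and PERP windows overlap or touch, so a run of capitals can hold several. TGANTCA had 1 match, in PERP (6.57% of windows), and neither AACCGGTT, the grainyhead motif (0.117%), nor GGAATG, the TEAD motif (11.9%), had any in these 6 windows. The GC content was 75.2% in DSG2, 78% in DSP, 66% in JUP, 77.2% in PERP, 66.8% in DSC2 and 60.4% in DSC3, and the median window had 58%. A match describes the letters and shows no binding.

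DSG2 encodes desmoglein 2, the desmoglein of simple epithelia such as the gut, and was the member with the clearest separation of the systems. On Transwell it read 9.36, 9.19, 8.92 and 9.40 in TiO2-control medium, 9.35, 9.26 and 9.34 after TiO2, 9.44, 9.46, 9.35 and 9.59 in ZnO-control medium, and 9.48, 9.40, 9.57 and 9.29 after ZnO. In the chip it read 10.15, 10.09, 10.28 and 10.00 in TiO2-control medium, 10.40, 10.09, 10.14 and 10.52 after TiO2, 9.88, 10.27, 10.03 and 10.23 in ZnO-control medium, and 10.05, 10.30, 10.12 and 10.47 after ZnO. All 16 chip arrays lay above all 15 Transwell arrays, and DSG2 was the only member of the 10 for which this held. How many of all genes separated the systems in this way was not counted. The first principal component of the brighter genes (50.1% of the variance) also separated all chip from all Transwell arrays. Its chip minus Transwell difference passed in all 4 media. It was 0.91 ± 0.12 (SE; adjusted p = 1.81e-06) in TiO2-control medium and 0.64 ± 0.12 (adjusted p = 0.000141) in ZnO-control medium. After exposure it was 0.97 ± 0.13 (adjusted p = 3.47e-06) with TiO2 and 0.80 ± 0.12 (adjusted p = 6.55e-06) with ZnO, about 1.96-fold and 1.74-fold. In order of level the 4 Transwell groups had means of 9.22 to 9.46 and the 4 chip groups 10.10 to 10.29. Within a system no pair of neighbouring groups in that order differed by more than the larger of their SDs.

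DSC2 encodes desmocollin 2, the partner of desmoglein 2 in simple epithelia, and lay in the opposite direction. On Transwell it read 9.04, 9.17, 9.22 and 9.12 in TiO2-control medium, 9.30, 9.16 and 9.16 after TiO2, 9.49, 9.49, 9.55 and 9.38 in ZnO-control medium, and 9.46, 9.55, 9.52 and 9.62 after ZnO. In the chip it read 9.06, 8.90, 9.00 and 8.66 in TiO2-control medium, 9.06, 8.93, 8.80 and 9.31 after TiO2, 8.31, 8.77, 8.63 and 8.43 in ZnO-control medium, and 8.68, 8.81, 8.42 and 8.66 after ZnO. Of the 16 chip arrays 13 lay below the lowest Transwell array, and the overlap was confined to arrays of the TiO2 set. The chip minus Transwell difference was -0.94 ± 0.11 (adjusted p = 2.36e-07) in ZnO-control medium and -0.89 ± 0.11 (adjusted p = 4.45e-07) after ZnO. It was -0.23 ± 0.11 (adjusted p = 0.159) in TiO2-control medium and -0.18 ± 0.12 (adjusted p = 0.362) after TiO2, neither of which passed. Without both chip arrays numbered 4 these were -0.15 (adjusted p = 0.372) and -0.28 (adjusted p = 0.0966).

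The system difference of DSC2 depended on the set of arrays. Of the 10 members DSC2 alone passed the test of the difference itself, ZnO-control less TiO2-control medium, at -0.71 ± 0.16 (adjusted p = 0.0161; 2.74% of all genes passed, 1.05% in this direction). The same contrast between the exposed arrays, added after seeing the data, gave -0.71 ± 0.17 (adjusted p = 0.0141; 4.58% and 2.24%), again for DSC2 alone. Leaving out chip TiO2 replicate 4 and chip TiO2-control replicate 4 together gave -0.79 (adjusted p = 0.00289) and -0.61 (adjusted p = 0.0187). DSC2 stood at 9.48 ± 0.07 in ZnO-control medium against 9.14 ± 0.08 in TiO2-control medium on Transwell (SD, n = 4), and at 8.54 ± 0.20 against 8.90 ± 0.18 in the chip. The medium differences within each system were 0.34 ± 0.11 (adjusted p = 0.0728) and -0.37 ± 0.11 (adjusted p = 0.238) and did not pass. Without both arrays numbered 4 they were 0.34 (adjusted p = 0.0327) and -0.45 (adjusted p = 0.0291), and without chip TiO2 replicate 4 alone the Transwell one had an adjusted p of 0.0477. Each set had its own medium, so medium and set cannot be told apart.

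DSC3, the desmocollin found mainly in stratified epithelia, spread widely. In control media it ranged from 4.64 to 5.71 on Transwell and from 5.03 to 5.84 in the chip. Its difference of 0.47 ± 0.18 (adjusted p = 0.0411) was the weakest of the 7 calls. It was lost on leaving out any of 10 arrays: Transwell TiO2-control 2 or 3, Transwell ZnO-control 2, 3 or 4, chip TiO2-control 1, 2 or 4, and chip ZnO-control 1 or 2 (0.37 to 0.48, adjusted p from 0.0552 to 0.114). By medium it passed in ZnO-control medium (0.77 ± 0.25, adjusted p = 0.0223) and after ZnO (0.83 ± 0.25, adjusted p = 0.0123), where the groups did not overlap. The ZnO-control call was lost without Transwell ZnO-control 4 (0.70, adjusted p = 0.0659), chip ZnO-control 1 (0.71, adjusted p = 0.0583) or chip ZnO-control 2 (0.71, adjusted p = 0.0606). In chip TiO2, replicate 4 read 6.34 while the other 3 arrays read 4.78 to 5.57. After TiO2 the DSC3 difference was 0.54 (adjusted p = 0.198), and 0.22 (adjusted p = 0.624) without both arrays numbered 4.

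**Figure D1:**
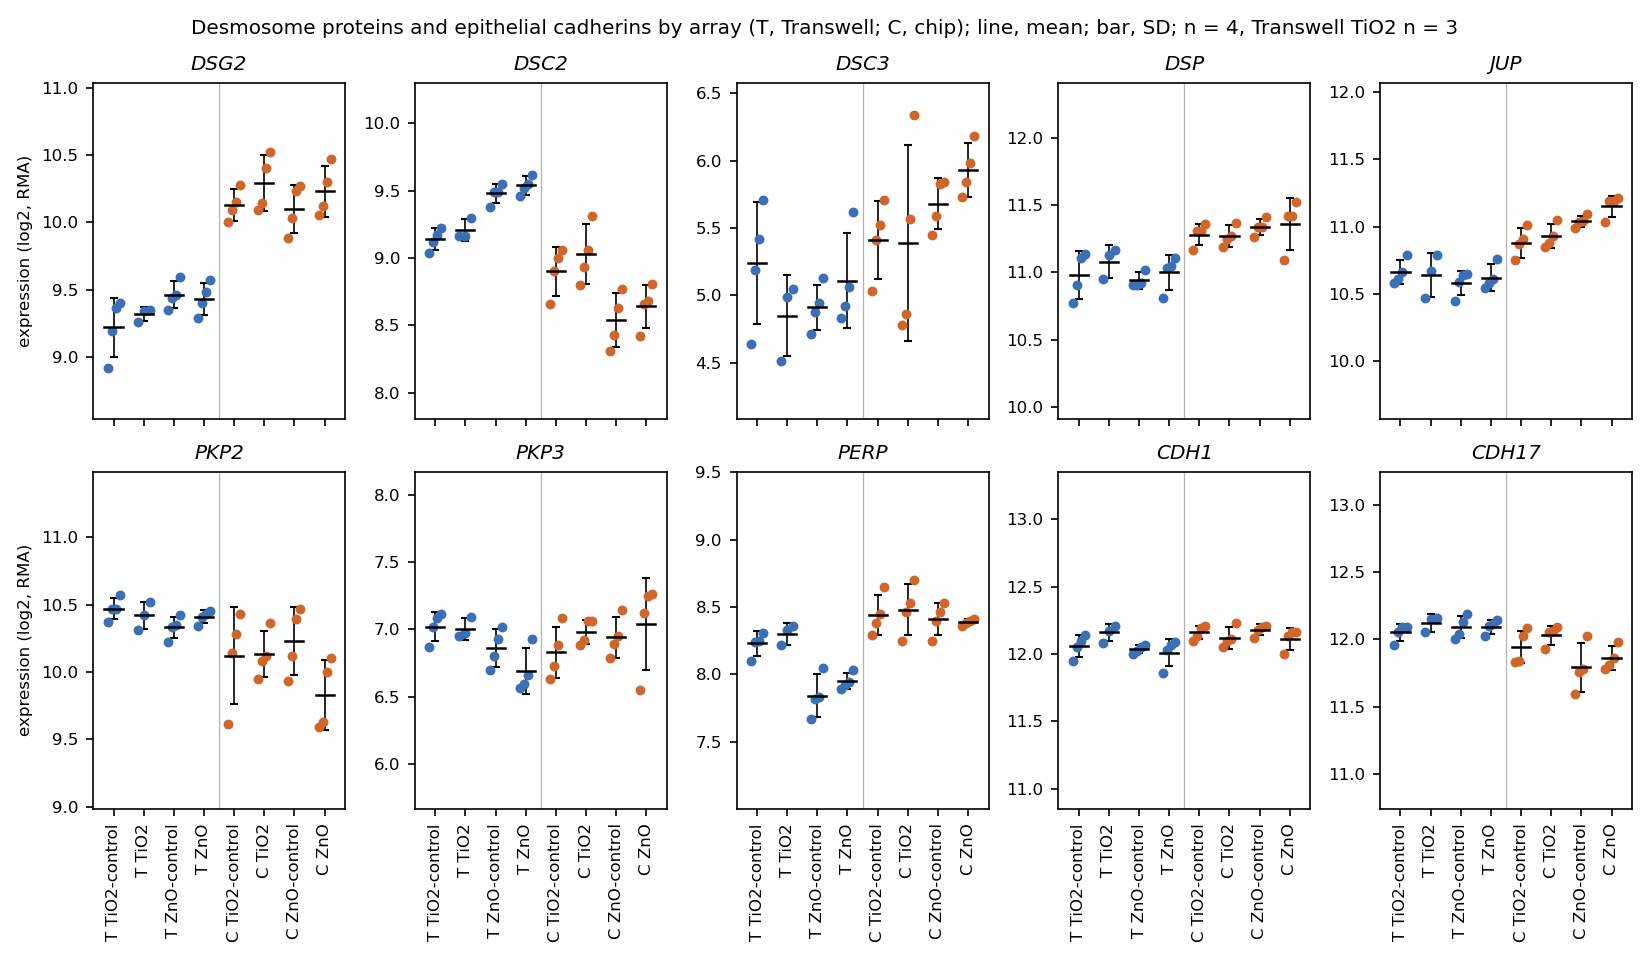
Log2 expression (vertical axis, a span of equal height in every panel) of the 10 genes in each array, by group (horizontal axis; blue, Transwell; orange, chip), with the group mean as a line and the SD as a bar. DSG2 in the chip starts at 9.88, above its highest Transwell array at 9.59, and DSC2 is lowest in the 2 chip groups of the ZnO set.

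The genes of desmoplakin and plakoglobin were higher in the chip. DSP encodes desmoplakin, which binds the filaments, and ranged from 11.09 to 11.52 in the chip (median 11.32) and from 10.77 to 11.17 on Transwell (median 11.02). All but 1 of the 16 chip arrays exceeded the highest Transwell array. The DSP difference over both control media was 0.35 ± 0.07 (adjusted p = 0.000213). JUP encodes plakoglobin, the armadillo protein shared by desmosomes and adherens junctions, and ranged from 10.75 to 11.21 in the chip (median 11.02) and from 10.45 to 10.79 on Transwell (median 10.61). Here too 15 of 16 chip arrays lay above every Transwell array, and the difference was 0.34 ± 0.06 (adjusted p = 6.72e-05). Its largest value was after ZnO, at 0.53 ± 0.09 (adjusted p = 2.44e-05).

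The smaller calls of DSP and JUP rested on single arrays. In TiO2-control medium DSP was higher by 0.30 ± 0.10 (adjusted p = 0.0274). This call was lost without Transwell TiO2-control 2 or 3 or chip TiO2-control 1, 3 or 4 (0.23 to 0.30, adjusted p from 0.0514 to 0.126), and without both chip arrays numbered 4 (adjusted p = 0.0518). JUP was higher by 0.23 ± 0.09 there and did not pass (adjusted p = 0.0681), but passed without Transwell TiO2-control 4 (0.27, adjusted p = 0.0448) or chip TiO2-control 3 (0.27, adjusted p = 0.0417). After TiO2 JUP passed at 0.28 ± 0.10 (adjusted p = 0.0371). That call was lost without Transwell TiO2 2 or 3 or chip TiO2 1 or 3 (0.20 to 0.30, adjusted p from 0.0660 to 0.254).

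The plakophilins, which gather the plaque under the membrane, did not follow DSP and JUP. PKP2, the plakophilin of simple epithelia, ranged from 10.22 to 10.57 on Transwell and from 9.59 to 10.47 in the chip, where 11 of 16 arrays lay below the lowest Transwell array. It passed after ZnO alone among the 4 media, lower by 1.49-fold (log2 difference -0.58 ± 0.14, adjusted p = 0.00235). Over both control media it was -0.23 ± 0.10 (adjusted p = 0.0872). It passed there without chip TiO2-control 4 (-0.28, adjusted p = 0.0306), without chip ZnO-control 1 (-0.27, adjusted p = 0.0477), or without both arrays numbered 4 (-0.28, adjusted p = 0.0263). In TiO2-control medium it was -0.35 ± 0.14 (adjusted p = 0.0784) and passed without chip TiO2-control 4 (-0.46, adjusted p = 0.0239) or without both arrays numbered 4 (-0.46, adjusted p = 0.0200). PKP3, a plakophilin of most epithelia, was -0.05 ± 0.09 over both control media (95% interval -0.24 to 0.14). After ZnO it passed at 0.36 ± 0.13 (adjusted p = 0.0381), with overlapping groups: Transwell read 6.93, 6.59, 6.56 and 6.66 and the chip 6.55, 7.12, 7.26 and 7.25. The PKP3 call was lost without Transwell ZnO 2, 3 or 4 or chip ZnO 2, 3 or 4 (0.29 to 0.35, adjusted p from 0.0769 to 0.138), and without chip ZnO 1 the difference was 0.52 (adjusted p = 0.000938).

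PERP encodes a small membrane protein of desmosomes that is a target of p53 and p63. On Transwell it read 8.25, 8.24, 8.10 and 8.31 in TiO2-control medium, 8.22, 8.36 and 8.33 after TiO2, 7.67, 8.05, 7.83 and 7.82 in ZnO-control medium, and 7.94, 7.89, 8.03 and 7.92 after ZnO. In the chip it ranged from 8.25 to 8.70, and its 4 group means lay between 8.39 and 8.48. PERP was thus lower in the Transwell ZnO set, control and exposed alike, than in every other group. ZnO-control against TiO2-control medium on Transwell gave -0.38 ± 0.10 (adjusted p = 0.0187), and PERP was the 1 member that passed there, against 6.64% of all genes (3.76% in this direction). That call was lost without Transwell TiO2-control 4 (-0.36, adjusted p = 0.0610) or Transwell ZnO-control 1 (-0.33, adjusted p = 0.0900). Between the exposed Transwell arrays, a comparison added after seeing the data, it was -0.36 ± 0.11 (adjusted p = 0.0370; 8.33% of all genes, 4.34% in this direction). This second call was lost on leaving out any Transwell TiO2 array or Transwell ZnO 1, 2 or 4 (-0.40 to -0.33, adjusted p from 0.0636 to 0.147). In the chip the medium difference was -0.03 ± 0.10 (95% interval -0.24 to 0.18). The difference between these 2 medium effects was 0.35 ± 0.14 and did not pass (adjusted p = 0.199). Chip against Transwell, PERP was higher by 0.57 ± 0.10 (adjusted p = 6.25e-05) in ZnO-control medium and by 0.44 ± 0.10 (adjusted p = 0.000971) after ZnO. In the TiO2 set it was 0.21 ± 0.10 (adjusted p = 0.136) and 0.18 ± 0.11 (adjusted p = 0.294).

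The E-cadherin and LI-cadherin genes differed by little. CDH1 encodes E-cadherin and ranged from 11.86 to 12.21 on Transwell and from 12.00 to 12.23 in the chip, so that only 2 of 16 chip arrays lay above every Transwell array. Its difference over both control media was 0.12 ± 0.05 (adjusted p = 0.0976; 95% interval 0.01 to 0.23), and no single medium passed. CDH17 encodes LI-cadherin, which binds between enterocytes outside the classical cadherin family, and ranged from 11.96 to 12.19 on Transwell and from 11.59 to 12.09 in the chip. It was lower by 1.15-fold over both control media (log2 difference -0.20 ± 0.06, adjusted p = 0.0122). In ZnO-control medium it was -0.30 ± 0.09 (adjusted p = 0.0107), a call lost without chip ZnO-control 1 (-0.24, adjusted p = 0.0597). After ZnO it was -0.23 ± 0.09 with an adjusted p of 0.0503. That value passed without chip TiO2-control 2 or 4, chip TiO2 4, chip ZnO-control 1 or 3, or chip ZnO 4 (-0.27 to -0.23, adjusted p from 0.0317 to 0.0475), and without both arrays numbered 4 (adjusted p = 0.0436). In the TiO2 set CDH17 was -0.11 ± 0.09 (adjusted p = 0.478) and -0.09 ± 0.10 (adjusted p = 0.618).

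By medium, the members that passed chip against Transwell were 2 of 10 in TiO2-control medium, where 22.9% of all genes passed, and 7 in ZnO-control medium (27.2%). After TiO2 they were 2 (18.2%) and after ZnO 8 (29.8%). The 2 in TiO2-control medium were DSG2 and DSP, and the 2 after TiO2 were DSG2 and JUP. The 8 after ZnO were all members but CDH1 and CDH17. Each medium's difference came from its own arrays, but its p-value used a spread estimated over the arrays of all groups. Apart from DSC2, no member had a chip minus Transwell difference that changed between the sets past the threshold.

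**Figure D2:**
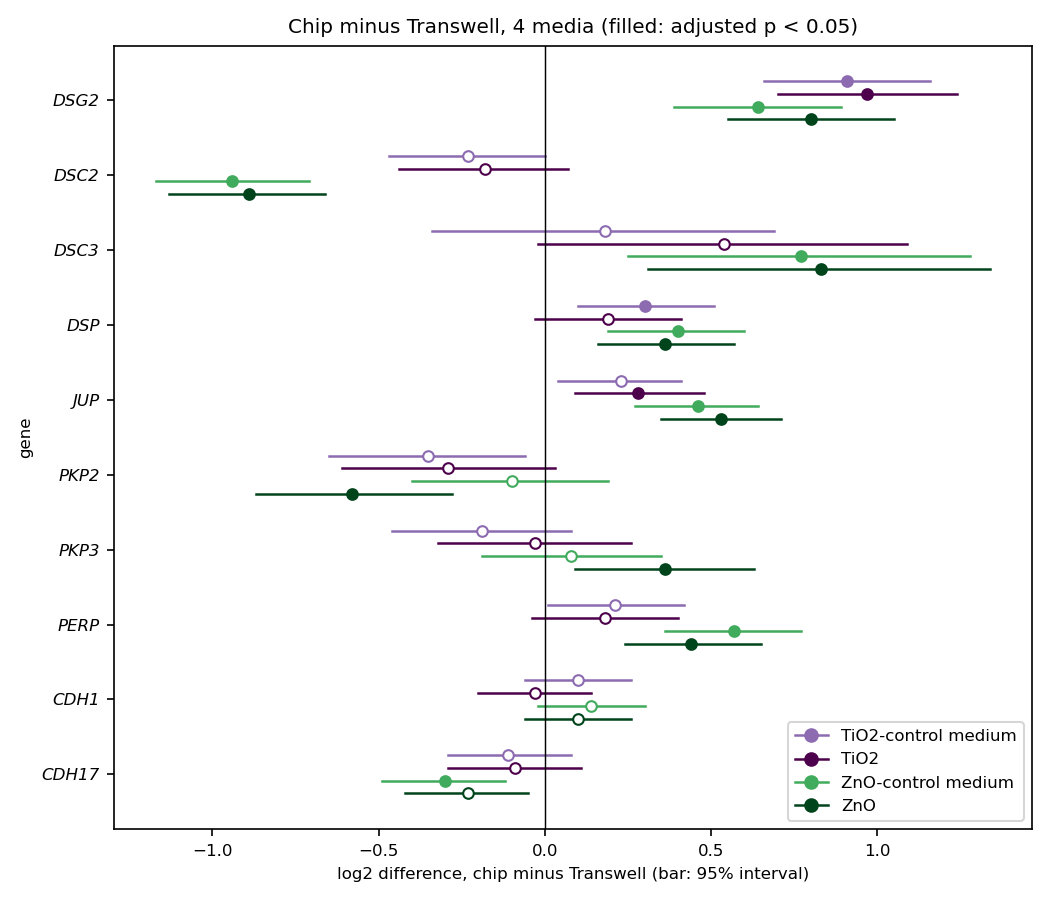
Log2 difference, chip minus Transwell (horizontal axis), for each gene (vertical axis) in 4 media, with 95% intervals as bars and filled points where the adjusted p was below 0.05. DSG2 lies between 0.64 and 0.97 in all 4 media, while DSC2 lies at -0.94 and -0.89 in the ZnO set and at -0.23 and -0.18 in the TiO2 set.

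The exposures moved no member past the threshold. None passed in any of the 4 comparisons of a nanomaterial with its own control (limma, Benjamini-Hochberg). Of all genes 0% passed for TiO2 on Transwell, TiO2 in the chip and ZnO on Transwell, and 0.272% for ZnO in the chip. Without both arrays numbered 4, 0.326% of all genes and 0 members passed for TiO2 in the chip. At an unadjusted p below 0.05 the count was 1 member, PKP2 with ZnO in the chip, against 9.42% of all genes. It was 0 members for TiO2 in the chip (8.92%), ZnO on Transwell (3.73%) and TiO2 on Transwell (2.64%). PKP2 read 10.47, 10.12, 10.39 and 9.93 in chip ZnO-control medium and 9.59, 10.10, 10.00 and 9.63 after ZnO. The groups overlapped, and the difference was -0.40 ± 0.14 (adjusted p = 0.325; 95% interval -0.69 to -0.10), or -0.32 (adjusted p = 0.473) without chip ZnO 1. This SE and interval used a spread pooled over all 8 groups. The within-group SD of PKP2 was 0.27 in the chip and 0.08 on Transwell, so the interval may be too narrow for the chip. On Transwell the ZnO difference of PKP2 was 0.08 ± 0.14, and the difference between the systems' responses was -0.47 ± 0.20 (adjusted p = 0.827). No member passed that test for ZnO (0.00447% of all genes) or for TiO2 (0%).

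The intervals bound what these arrays could miss, given a spread of each gene pooled over all 8 groups. For genes that spread more in the chip, such as PKP2 and DSC2, those of the chip may be too narrow. DSC3 had the widest intervals, one of -0.94 to 0.17 for TiO2 on Transwell and one of -0.26 to 0.77 for ZnO in the chip. For the other 9 members, the 95% intervals of all 4 exposures lay between -0.69, for PKP2 with ZnO in the chip, and 0.42, for PKP3 with TiO2 in the chip. For CDH1 the 4 intervals lay between -0.22 and 0.27. DSG2 differed by 0.10 and 0.16 after TiO2 and by -0.02 and 0.13 after ZnO, on Transwell and in the chip, each with an interval that held 0. Without both arrays numbered 4 the TiO2 differences in the chip became 0.04 for DSG2, -0.06 for DSC2, -0.35 for DSC3 and 0.27 for PKP3. The PKP3 interval then reached 0.57 (-0.04 to 0.57), beyond the 0.42 above, and DSC3 had -0.85 to 0.16. Without chip ZnO 1 the ZnO difference of PKP3 in the chip went from 0.10 to 0.27 (95% interval 0.03 to 0.50, adjusted p = 0.409) and that of DSP from 0.02 to 0.11 (-0.09 to 0.32).

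**Figure D3:**
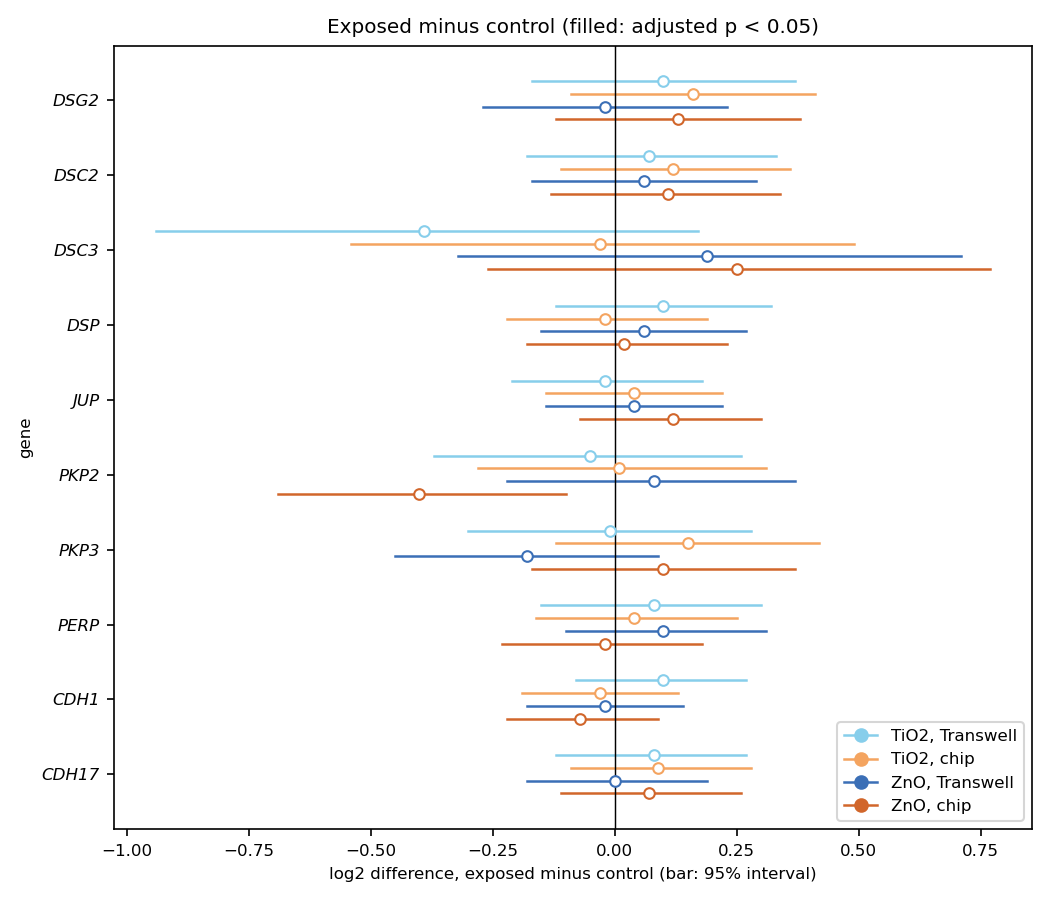
Log2 difference, exposed minus own control (horizontal axis), for each gene (vertical axis) and each nanomaterial and system, with 95% intervals as bars. No point is filled, since none had an adjusted p below 0.05. The intervals use a spread pooled over all groups, and that of PKP2 with ZnO in the chip (-0.69 to -0.10) is the only one that does not hold 0. PKP2 spread more in the chip than on Transwell, so this interval may be too narrow.

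Replicates of PKP2 and DSC2 spread more in the chip. The within-group SD was 0.27 in the chip and 0.08 on Transwell for PKP2, a ratio of 3.35, and 0.19 and 0.07 for DSC2, a ratio of 2.60. The ratio was below 1 for JUP (0.771), CDH1 (0.834) and DSP (0.882), and its median over the 15375 genes brighter than the array medians was 1.42. Over single arrays, deviations of DSG2 and DSC2 from their group means had a Pearson correlation of 0.67 in the 16 chip arrays and of -0.67 in the 15 Transwell arrays. DSG2 and DSP had 0.45 and 0.84. These describe arrays that share their processing, and were not tested.

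The genes whose levels most resembled a member's were taken by the smaller of 2 Pearson correlations, over the 16 chip and over the 15 Transwell arrays, among 15365 genes other than the members. For DSG2 they were SSR1 (0.76 and 0.85), NT5C3A (0.80 and 0.75) and MAGT1 (0.74 and 0.83), and for DSC2 RCHY1 (0.81 and 0.84), MTMR2 (0.80 and 0.82) and C1D (0.80 and 0.77). CDH1 had VPS13C (0.79 and 0.83), TRPC4AP (0.73 and 0.91) and POTEE (0.75 and 0.73). PERP had VAMP2, PIDD1 and CST3, PKP3 had LINC00857, USP5 and REXO5, and PKP2 had KCNJ8, LIN28B and TMEM52B. DSP had PCNX4, BMPR2 and DTX3L, JUP had POLH, LIF and SBNO2, CDH17 had CNDP2, GLYATL1 and APLP2, and DSC3 had ATP5F1EP2, KCNN4 and RAB9A.

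Of 9 other desmosomal genes measured, 2 were higher in the chip over both control media (14.6% of all genes) and 0 lower (18.9%). Both encode plakins, and 33.5% of all genes passed in either direction. PPL, which encodes periplakin, a plakin of the filament linkage, was higher by 0.80 ± 0.12 (adjusted p = 4.01e-06), and EVPL, envoplakin, by 0.35 ± 0.10 (adjusted p = 0.00828). After TiO2 the group means of EVPL were 4.39 on Transwell and 4.30 in the chip. The desmogleins DSG1, DSG3 and DSG4, the desmocollin DSC1 and the plakophilin PKP1, genes of stratified epithelia, stayed below the array medians in every group. In RefSeq's gene order DSC3, DSC2, DSC1, DSG1, DSG4, DSG3 and DSG2 follow each other on 1 chromosome. The 4 genes of this cluster below the array medians thus lie between the desmocollin members, DSC3 and DSC2, and DSG2.

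A list of 10 genes held keratins, the linker plectin and the filament proteins vimentin and desmin. Of these 10, 8 were higher in the chip (14.6% of all genes) and 0 lower (18.9%). Their median log2 difference was 0.94. Over the 6 lists of other genes together, 29 of 80 genes were higher and 15 lower, so 55.0% passed against 33.5% of all genes. KRT23 was higher by 1.88 ± 0.34 (adjusted p = 4.94e-05), followed by PLEC, the cytolinker plectin, by 1.27 ± 0.10 (adjusted p = 3.92e-11), and VIM, the mesenchymal filament vimentin, by 1.26 ± 0.12 (adjusted p = 8.60e-10). VIM group means were 4.17 to 4.50 on Transwell and 5.53 to 5.79 in the chip. Adherens junction partners were split, with 4 higher (14.6% of all genes) and 4 lower (18.9%) of 15. VCL, vinculin, was higher by 0.74 ± 0.08 (adjusted p = 1.36e-08), and NECTIN2 by 0.40 ± 0.08. CTNNA3 passed too, with group means below the array medians throughout. The nectins NECTIN3 (-1.48 ± 0.11, adjusted p = 5.54e-12) and NECTIN1 (-0.56 ± 0.09) and the actin binder LIMA1 (-0.40 ± 0.08) were lower. The chip means of NECTIN1, 3.30 to 3.69, lay near the array medians, so the size of its difference is uncertain. The catenin genes CTNNB1 (0.11 ± 0.06) and CTNNA1 (0.09 ± 0.06) did not pass.

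Of 14 other cadherins, 4 were higher (14.6% of all genes) and 4 lower (18.9%) in the chip. CELSR1, a planar polarity cadherin, was higher by 1.64 ± 0.13, PCDH1, a protocadherin of epithelia, by 1.40 ± 0.13 and FAT1, a giant atypical cadherin, by 0.85 ± 0.10. CDH6, K-cadherin, was lower by 4.15-fold (log2 difference -2.05 ± 0.15, adjusted p = 7.69e-12), CDH16, kidney-specific cadherin, had -2.02 ± 0.26, and CDHR5, a protocadherin of the brush border, had -0.94 ± 0.13. The chip means of CDH6, 3.48 to 3.76, lay near the array medians, so the size of its difference is uncertain. CDH2, N-cadherin, stayed below the array medians in every group.

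Of 23 transcription regulators and splicing factors, 5 were higher (14.6% of all genes) and 6 lower (18.9%). SNAI1, the E-box binding repressor Snail, was higher by 2.22 ± 0.09 (adjusted p = 1.06e-16), with group means of 5.40 to 6.54 on Transwell and 8.08 to 8.59 in the chip. KLF4 was higher by 0.69 ± 0.10 and LEF1 by 0.39 ± 0.11, while TCF4 (-0.87 ± 0.12), the intestinal homeobox factor CDX2 (-0.74 ± 0.10) and the splicing factor ESRP2 (-0.62 ± 0.10) were lower. SNAI2, ZEB1 and ZEB2, other repressors of CDH1, lay below the array medians throughout. Of 9 genes for shedding and turnover of cadherins 6 were higher and 1 lower, against the same 14.6% and 18.9%. MMP7, matrilysin, was higher (adjusted p = 8.94e-11), with group means of 5.73 to 6.29 in the chip. Its Transwell means of 2.80 to 3.25 were below or near the array medians, so no size is given. ADAM9 was higher by 1.16 ± 0.09 and ADAM15 by 0.72 ± 0.09, CBLL1, the ubiquitin ligase Hakai, was lower at -0.33 ± 0.11, and ADAM10, the main sheddase of E-cadherin, did not pass (0.08 ± 0.06).

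**Figure D4:**
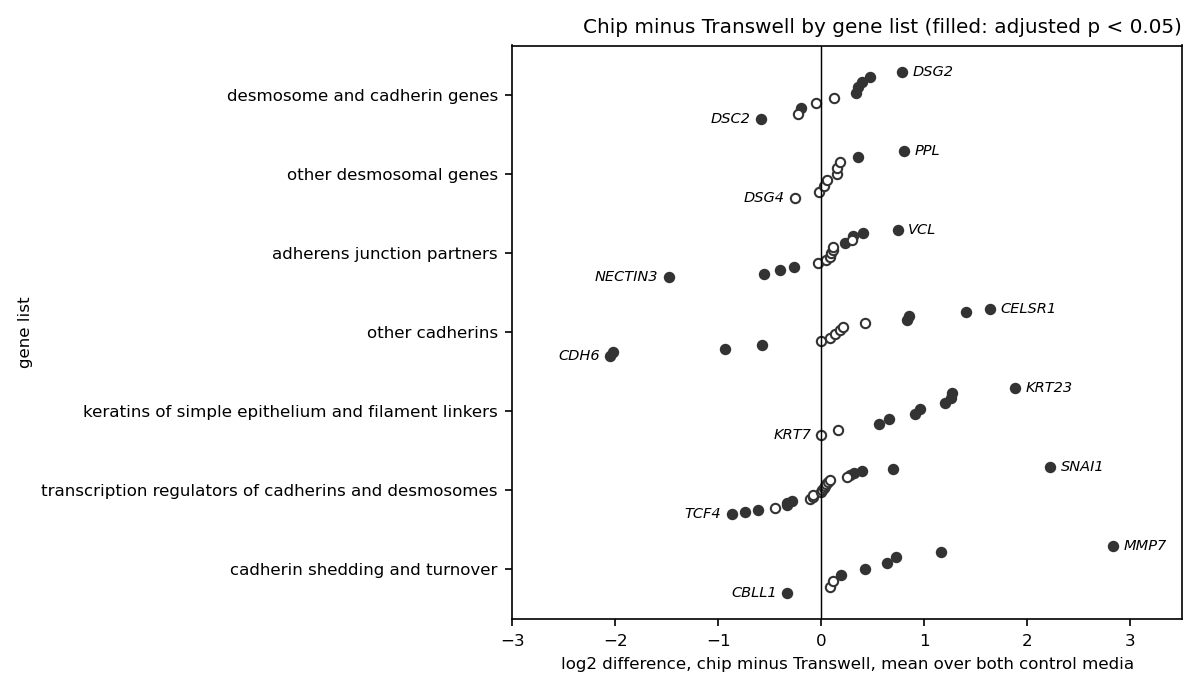
Log2 difference, chip minus Transwell over both control media (horizontal axis), for each gene of 7 lists (vertical axis), with filled points where the adjusted p was below 0.05 and the outermost genes named. The desmosome and cadherin genes span -0.59 (DSC2) to 0.78 (DSG2), and SNAI1 lies at 2.22. The list of keratins and linkers, which also holds vimentin and desmin, lies at or above 0 up to 1.88 (KRT23). The place of MMP7 rests on Transwell levels near the array medians and is no measured size. That of CDH6 rests on chip levels near those medians and is uncertain.

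Between ZnO-control and TiO2-control medium on Transwell, 2 of the 80 genes of the 6 other lists were higher and 6 lower, which is 10.0% against 6.64% of all genes. These 8 genes, 4 of them transcription regulators, were as follows. PKP4, a plakophilin-related armadillo protein (-0.40 ± 0.10, adjusted p = 0.0125), VCL (-0.82 ± 0.11, adjusted p = 4.07e-05) and CDH3, P-cadherin (-0.47 ± 0.12, adjusted p = 0.0139), were lower. SNAI1 (-1.13 ± 0.13, adjusted p = 5.78e-06), LEF1 (-0.56 ± 0.16) and TCF7L2 (-0.54 ± 0.11) were lower too. NECTIN1 (0.52 ± 0.13, adjusted p = 0.0156) and OVOL1 (0.77 ± 0.17, adjusted p = 0.00512) were higher. In the chip 0 members and 0 genes of these lists passed (0.0580% of all genes). As the mean over both systems (2.03% of all genes) no member passed, PERP having -0.21 ± 0.07 (adjusted p = 0.131). The chip minus Transwell difference itself changed between the control media for 4 of the 80 genes, against 2.74% of all genes. They were PKP4 (0.52 ± 0.14), VCL (0.90 ± 0.16), SNAI1 (1.35 ± 0.19) and TCF7L2 (0.77 ± 0.16), each in the direction opposite to DSC2. Of the 9 enterocyte-like markers FABP1, a fatty acid binding protein, passed in the direction of DSC2 (-0.81 ± 0.22, adjusted p = 0.0409). Between the exposed chip arrays of the 2 sets 0 members passed (0.393% of all genes), the unadjusted count being 4 against 11% of all genes.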

How the data were processed

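Total RNA (100 ng per array) was hybridised to an Affymetrix whole-transcript array, per the labels' protocols. The authors deposited log2 values made with RMA, per the submitters' processing notes; its version is not given in the sources used here, nor is a genome build. Of 53617 probe sets, 23871 named 1 gene, 1842 several and 27904 none, which left 22395 genes, with the brightest probe set kept for 632 genes with several. RMA equalises array distributions, so a shift common to all genes would not be seen. All 8 groups entered 1 fit, each with its own mean, in limma 3.58.1 in R 4.3.3 (23 residual degrees of freedom, prior 4.77), and p-values were adjusted with Benjamini-Hochberg over all genes in each of 18 comparisons, 3 of them added after seeing the data. The number of arrays limits precision, and errors are standard errors unless given as SD. The script was tested on simulated data. The members and gene lists were chosen with earlier results of these data known. All members were named, as were up to 3 genes each way among those of a list that passed; single genes beyond these were chosen after their values were seen. Alternatives covered the prior, weights, genes and arrays used, normalisation and replicate number as a block.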

Additional observations from a re-analysis of the deposited data

Results flagged for a closer look

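DSP in Transwell ZnO-control replicate 2 read 11.02 while the other 3 arrays of that group read 10.91 to 10.92, a gap that was large for the range of the group. JUP in chip ZnO replicate 3 read 11.03 against 11.19 to 11.21 in the other 3. These were 2 far arrays in 70 groups of 4 examined over the members; chance flags about 1 in 20 such groups. The chip minus Transwell difference of DSC2 differed between ZnO-control and TiO2-control medium by -0.71 in the test of that difference (limma, adjusted p = 0.0161).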

How the results depend on the processing

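No called member difference changed sign in any alternative. In TiO2-control medium the count of members passing chip against Transwell, 2, became 4 with an intensity trend in the prior, 1 with the spread of the groups compared alone, and 1 to 3 with each array left out. After TiO2 it went from 2 to 1 with the groups alone, with all probe sets, with array medians subtracted or with the replicate block, and was 1 to 2 with arrays left out. For ZnO-control against TiO2-control medium on Transwell it went from 1 to 2 with the trend, array weights, brighter genes alone or both chip arrays numbered 4 left out (0 to 2 with single arrays out), and in the chip from 0 to 1 with those arrays out. Between exposed Transwell arrays it went from 1 to 3 with array weights and to 0 with all probe sets or the replicate block (0 to 1 with arrays out). Over both control media it was 6 to 8 in all alternatives, in ZnO-control medium 5 to 7, after ZnO 6 to 9, and 0 throughout for the exposures. The cause was not tested. Of single calls, DSC3 over both control media was lost with array weights (adjusted p = 0.0638), all probe sets (0.0679) or medians subtracted (0.0618), and CDH1 there was gained with the trend (0.0161). PKP2 there was gained with array weights (0.0308) or medians subtracted (0.0490). With the groups alone, CDH17 in ZnO-control medium (0.0933) and DSP (0.0652) and PKP3 (0.167) after ZnO were lost. PERP between control media on Transwell was lost likewise (0.0518). CDH17 after ZnO was gained with the trend (0.0107), array weights (0.0310) or brighter genes alone (0.0289). Same-numbered arrays of exposed and control groups shared no deviations, with 0 of 15 pairs above a correlation of 0.1, so the numbers were not taken as pairs; with the replicate block 7426 genes passed over both control media, against 7495 without it. Depth does not apply to arrays.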
